A study of Mus musculus with 4 samples.

Results

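The transcripts of 10 genes of the bone morphogenetic protein (BMP) pathway were followed in dorsal epidermis of E15.5 mouse embryos, an age at which hair follicles are forming. They were the ligands Bmp2, Bmp4 and Bmp7, the receptors Bmpr1a, Bmpr1b and Bmpr2, the membrane pseudoreceptor Bambi, and the secreted antagonists Nog, Grem1 and Sostdc1. The members were taken by name, and every probe set annotated to exactly 1 of them was used. A probe set is the group of short probes on an Affymetrix MOE430 2.0 array that reads 1 transcript. This gave 22 probe sets for the 10 genes, out of 45037 probe sets and 18193 named genes in all. Of the 22 probe sets, 19 were bright enough to be tested and 3 were not, which left 8 of the 10 genes with a test.

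The mutant embryos carried KRT14-Cre and 1 copy of the conditional allele Ctnnb1(Ex3)fl, a genotype written KRT14-Cre Ctnnb1(Ex3)fl/+. The Cre recombinase is driven by the keratin 14 promoter, which acts in the basal layer of stratified epithelia, and it removes exon 3 of the beta-catenin gene. Beta-catenin is the transcriptional effector of canonical Wnt signalling, and the protein made without exon 3 lacks the sites that mark it for destruction. The controls were littermates, whose alleles are not given in the sources used here. There were 2 mutant and 2 control arrays, each of an embryo of its own, and dorsal epidermis had been parted from dermis with dispase before RNA was extracted. The comparison asks how epidermal transcripts differ when beta-catenin is held active in the epidermis.

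BMPs are secreted dimers that bring together type I and type II serine/threonine kinase receptors at the cell surface. The activated type I receptor phosphorylates Smad proteins, which enter the nucleus and act on target genes such as the Id and Msx genes. Antagonists such as noggin and gremlin bind the ligands outside the cell, and BAMBI resembles a type I receptor but lacks the kinase domain. In embryonic skin BMP signalling is known to restrain the formation of hair placodes, and later to be needed for differentiation of the hair shaft.

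Signal is the deposited array intensity of a probe set, on a linear scale common to the arrays. It can be compared between arrays for 1 probe set, but not between probe sets. The trimmed mean signal over all probe sets was about 150 on each array (149.96), and the median was 30.1 and 28.6 on the mutant arrays and 26.7 and 27.6 on the control arrays. The 40th percentile of each array, between 14.4 and 16.1 over the 4 arrays, was taken as its background. Fold changes are mutant over control on the log2 scale with their standard errors (SE) from limma, and adjusted p-values are from limma with Benjamini-Hochberg adjustment over all 28434 tested probe sets. Ctnnb1 signal itself was 6907 and 7323 in mutants, against 5311 and 4940 in controls, but probes lying outside the removed exon say nothing of the genotype. Axin2, a feedback inhibitor transcribed in response to Wnt signals, had 2540 and 2803 in mutants, against 522 and 555 in controls.

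By the brightest probe set of each gene, 6 of the 8 tested BMP genes were higher in mutant epidermis at an adjusted p below 0.05, 1 was lower and 1 did not pass. Over all 12469 tested genes, 20.6% were higher and 24.5% were lower by the same rule, so much of the array differed between the groups. Among the 19 tested probe sets 11 were higher and 3 lower, against 18.9% higher and 20.5% lower, 39.4% in either direction, over all tested probe sets. At an adjusted p below 0.05 and a fold of at least 2, 6 of the 19 probe sets were higher and 3 lower, against 10.4% and 8.77% of all tested probe sets. By gene that rule gave 4 higher and 1 lower of 8, against 10.7% and 10.1% of all tested genes. The 2 groups did not overlap for any of the 19 probe sets, of which 15 were higher and 4 lower in mutants. Over all tested probe sets, 34.2% lay wholly higher and 37.5% wholly lower in mutants. By gene 7 were wholly higher and 1 wholly lower, against 34.4% and 41% of all tested genes. The median log2 fold change of the 8 genes was 1.31, against -0.056 over all tested genes. The 6 higher genes differed in size, in the order Bmp4, Bmp2, Bambi, Bmp7, Bmpr2 and Sostdc1.

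**Figure D1:**
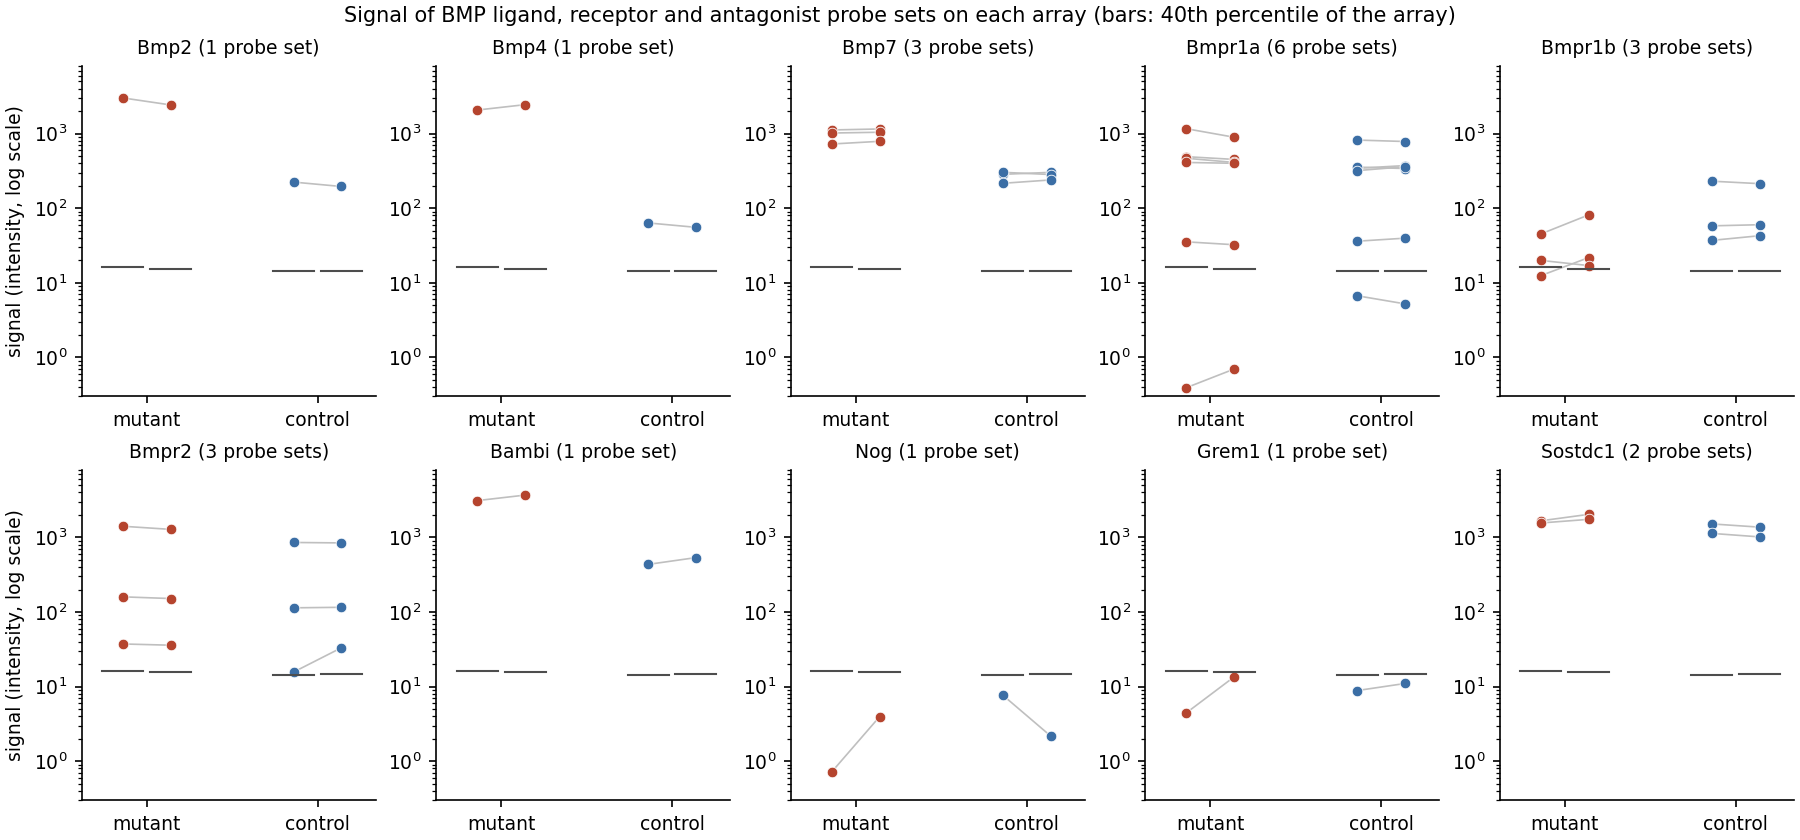
Signal (intensity, log scale) of each probe set of the 10 genes on the 2 mutant arrays (red, left) and the 2 control arrays (blue, right). Thin lines join the values of 1 probe set within a group, and dark bars mark the 40th percentile of each array, 14.4 to 16.1. Bmp4, Bmp2, Bmp7 and Bambi stood apart between the groups, Bmpr1b was lower in mutants, and Nog and Grem1 lay below the bars on every array.

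Bmp4, a ligand that is made in both epithelium and mesenchyme of developing skin, had the largest change of the 10 genes. Its signal was 2070 and 2445 in mutant epidermis, against 63.5 and 55.4 in control epidermis. The groups lay far apart, since the lowest mutant signal was 32.6 times the highest control signal while arrays of 1 group differed by 1.18-fold (mutants) and 1.15-fold (controls). In log2 terms Bmp4 rose by 5.24 ± 0.13 (SE, n = 2 per group; limma adjusted p = 3.04e-07), which is 37.9-fold. Of the 23438 probe sets above background on all 4 arrays, 12 had a larger rise. This ranking, here and below, leaves out probe sets below background on any array. One of Msx1, at least 84.0-fold higher in mutants, is thus not counted. Bmp4 was read by 1 probe set (1422912_at), so no other probe set checks it. Among other genes, the 3 whose pattern over the 4 arrays lay nearest that of Bmp4, by the distance between log2 signals centred on each gene's own mean, were Adamts9 (distance 0.143), Myl9 (0.152) and Tubb3 (0.286). Their rises were 5.31, 5.28 and 5.23. With 4 arrays in 2 groups, this measure mainly follows the size of the change.

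The promoter of Bmp4 is shown because this gene rose most. Promoters of 5 of the 10 genes were taken from the RefSeq table of mouse build GRCm38.p6, any member starts on 1 chromosome being left out beforehand. The 250 bases before each of their listed starts were searched on both strands for short strings. Those of TCF/LEF sites were the string CTTTGAA, the string CTTTGAT, the string CTTTGTA and the string CTTTGTT. That of GC-rich Smad sites was GGCGCC. TCF/LEF proteins are the DNA-binding partners of beta-catenin. Of the 32851 promoters of this length in the table, 14.8% held at least 1 of the TCF/LEF strings and 9.59% held GGCGCC. None of these strings overlap in the promoters printed here. The 250 bases before the Bmp4 start, on the minus strand of chr14:46390670-46390919, held none of these strings, and they were 63.2% G or C, against a median of 52.4% over all promoters.
Bmp4: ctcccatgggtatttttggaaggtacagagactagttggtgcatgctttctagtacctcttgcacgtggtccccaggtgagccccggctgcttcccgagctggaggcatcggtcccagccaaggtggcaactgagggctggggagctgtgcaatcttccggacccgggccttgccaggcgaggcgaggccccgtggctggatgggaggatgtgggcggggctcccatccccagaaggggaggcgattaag
Absence of these letters from a window of this length bears on nothing outside it.

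Bmp2 (1423635_at), a ligand of the hair placode, was the next largest. Its signal was 3012 and 2424 in mutants, against 224 and 196 in controls. Both mutant values lay above both control values, the lowest mutant signal being 10.8 times the highest control signal. Bmp2 rose by 3.69 ± 0.13 (SE, n = 2 per group; limma adjusted p = 1.12e-06), or 12.9-fold, and 62 of the 23438 probe sets above background on all arrays rose more.

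Bmp7, a ligand of a separate branch of the family that is made in epidermis and other epithelia, was read by 3 probe sets that gave like values. On the brightest (1435479_at), the signal was 1120 and 1154 in mutants, against 285 and 302 in controls. The second (1418910_at) had 1018 and 1043 in mutants, against 303 and 283 in controls, and the third (1432410_a_at) had 726 and 788 in mutants, against 216 and 239 in controls. All 3 were higher in both mutants, with log2 rises of 1.95 ± 0.10, 1.82 ± 0.10 and 1.74 ± 0.11 (SE, n = 2 per group) and limma adjusted p-values of 5.23e-06, 7.85e-06 and 1.92e-05. The change of Bmp7 was thus 3.33-fold to 3.88-fold by probe set, with mutant arrays differing from each other by at most 1.09-fold.

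**Figure D2:**
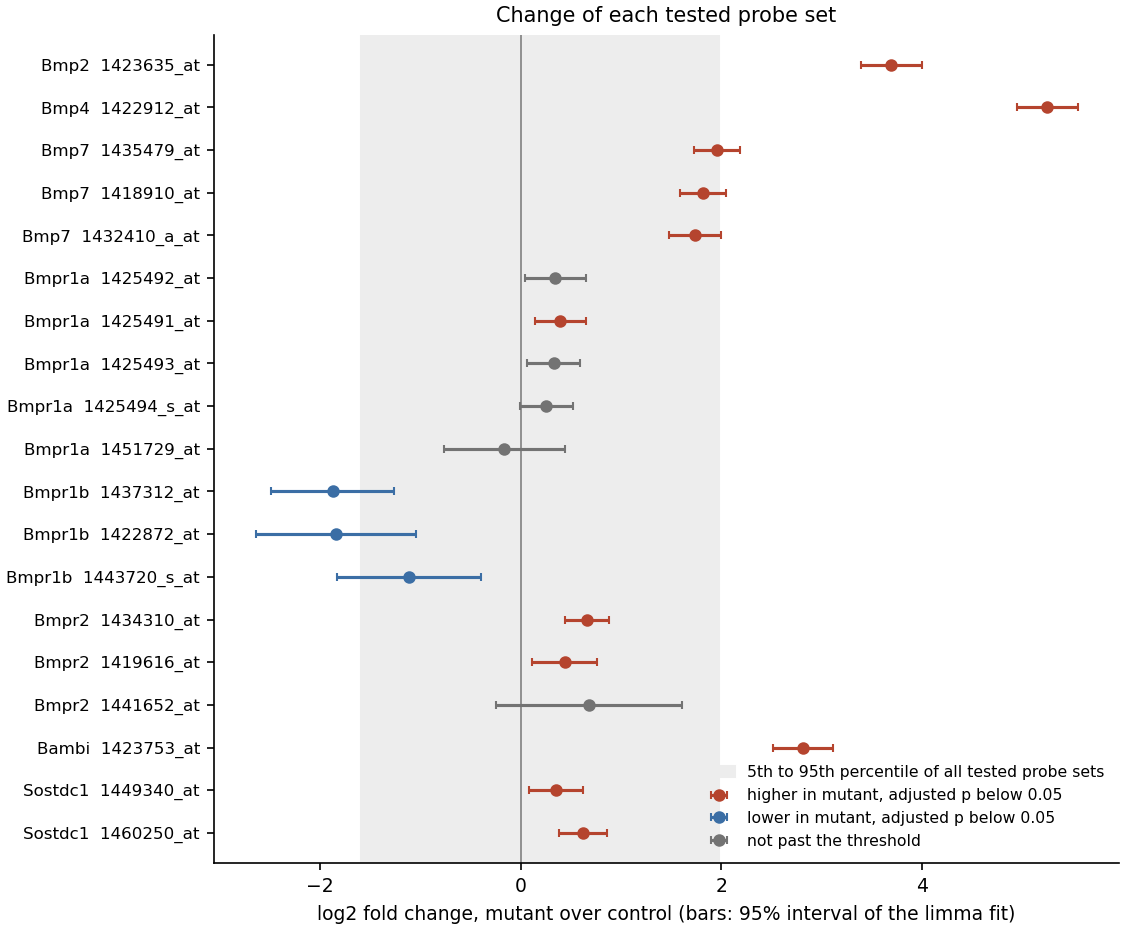
Log2 fold change, mutant over control, of the 19 tested probe sets with 95% intervals of the limma fit. Red points were higher and blue points lower at an adjusted p below 0.05, grey points did not pass, and the shaded band spans the 5th to 95th percentile of all tested probe sets (-1.59 to 1.97). The points of Bmp2, Bmp4 and Bambi lay right of the band, and 2 of the 3 points of Bmpr1b lay left of it. All points of Bmp7, Bmpr1a, Bmpr2 and Sostdc1 lay inside the band.

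The receptors did not move in 1 direction. Bmpr1b, a type I receptor of BMPs, was lower on all 3 of its probe sets. On the brightest (1437312_at), the signal was 45.2 and 81.4 in mutants, against 230 and 213 in controls. The other probe sets (1422872_at and 1443720_s_at) had 12.5 and 21.8, and 20.0 and 17.0, in mutants, against 58.0 and 60.1, and 37.0 and 42.8, in controls. All mutant values lay below all control values of the same probe set, although the mutants themselves differed by 1.80-fold on the brightest. The log2 changes were -1.87 ± 0.26, -1.84 ± 0.34 and -1.11 ± 0.31 (SE, n = 2 per group), with limma adjusted p-values of 0.00107, 0.00429 and 0.0243. Of the 23438 probe sets above background on all arrays, 449 fell more than the brightest. The signal of mutant 1 on the second probe set (12.5) was below that array's background of 16.1, so the size of that change is uncertain. The fall of the third probe set did not pass without control 1 (-1.21), without control 2 (-1.01) or without mutant 2 (-0.99), while the other probe sets passed without any 1 array. In RNA of a whole tissue, fewer cells that express Bmpr1b and less Bmpr1b RNA per cell cannot be told apart.

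Bmpr1b is shown with its promoters because it was lower in mutants, alone among the 3 receptors of the 10 genes. RefSeq lists 3 starts, and the window before each held 1 TCF/LEF string. Windows 2 and 3 overlap and share their match, so 2 of the 3 are printed, with the match in capitals. The match begins 210 bases before the start in the first, as the reverse complement of CTTTGTT, and 58 bases before the start in the second. They lie on the minus strand of GRCm38.p6 at chr3:141982265-141982514 and chr3:141931589-141931838.
Bmpr1b start 1: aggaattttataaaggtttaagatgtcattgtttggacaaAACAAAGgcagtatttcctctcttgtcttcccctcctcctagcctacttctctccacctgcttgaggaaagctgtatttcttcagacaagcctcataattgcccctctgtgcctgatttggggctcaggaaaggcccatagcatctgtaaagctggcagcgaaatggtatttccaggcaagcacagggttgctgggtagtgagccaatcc
Bmpr1b start 2: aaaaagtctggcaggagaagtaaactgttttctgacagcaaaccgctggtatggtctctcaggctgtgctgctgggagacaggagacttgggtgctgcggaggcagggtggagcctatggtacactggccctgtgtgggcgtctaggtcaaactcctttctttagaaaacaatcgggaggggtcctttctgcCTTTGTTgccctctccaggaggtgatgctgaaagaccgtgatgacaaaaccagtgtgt
The windows of Bmpr1a and Bmpr2 held no TCF/LEF string and 1 GGCGCC each, and that of Grem1 likewise. Those windows were 78.8%, 64.0% and 72.0% G or C, against a median of 52.4% over all promoters. The 9.59% share for GGCGCC is therefore not matched to them in G and C. A match of letters is a description and does not show that a factor binds there.

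Bmpr1a, the other type I receptor among the 10 genes, is expressed through the epidermis and is needed for hair differentiation in mice. It was read by 6 probe sets. On the brightest (1425492_at), the signal was 1164 and 894 in mutants, against 820 and 784 in controls. Its log2 change of 0.35 ± 0.13 (SE, n = 2 per group) did not pass (limma adjusted p = 0.0706), and its 95% interval ran from 0.042 to 0.65. The second probe set (1425491_at) had 491 and 451 in mutants, against 343 and 373 in controls, and passed with 0.40 ± 0.11 (limma adjusted p = 0.0232). The next probe sets by brightness had values of 0.33 ± 0.11 (adjusted p = 0.0506) and 0.26 ± 0.11 (adjusted p = 0.106), and a dim one had -0.16 ± 0.26 (adjusted p = 0.658). The last lay below background on every array and was not tested. On 4 of the 5 tested probe sets both mutants were above both controls, the lowest mutant signal being at most 1.21 times the highest control signal, and 1 of these probe sets passed. The calls turned on single arrays. Without mutant 2 the brightest probe set passed with 0.54 (adjusted p = 0.00851) and the third with 0.43 (adjusted p = 0.0437). Without mutant 1 their values were 0.16 (adjusted p = 0.348) and 0.24 (adjusted p = 0.229). The second did not pass without control 1 (adjusted p = 0.116) or without mutant 1 (adjusted p = 0.104).

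Bmpr2, the type II receptor, was read by 3 probe sets. On the brightest (1434310_at), the signal was 1410 and 1280 in mutants, against 854 and 843 in controls. Both mutants lay above both controls, and the rise was 0.66 ± 0.09 (SE, n = 2 per group; limma adjusted p = 0.00105), or 1.58-fold. The second (1419616_at) had 160 and 151 in mutants, against 114 and 115 in controls, and rose by 0.44 ± 0.14 (limma adjusted p = 0.0389). The third had 37.3 and 35.8 in mutants, against 15.7 and 33.1 in controls, and its value of 0.68 ± 0.40 did not pass (adjusted p = 0.216). That value was 0.14 without control 1 and 1.22 without control 2 (adjusted p = 0.0544). The brightest passed without any 1 array, whereas the second did not pass once any of the 4 arrays was left out (0.45 without control 2, 0.43 without control 1, 0.40 without mutant 1 and 0.48 without mutant 2).

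Bambi, the pseudoreceptor that dampens BMP and TGF-beta signalling and is itself transcribed in response to both BMP and Wnt signals, was higher in mutant epidermis. Its signal was 3110 and 3687 in mutants, against 434 and 536 in controls. The lowest mutant signal was 5.81 times the highest control signal. Bambi rose by 2.81 ± 0.13 (SE, n = 2 per group; limma adjusted p = 3.82e-06), or 7.02-fold, and 187 of the 23438 probe sets above background on all arrays rose more.

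Sostdc1, also called ectodin or Wise, is a secreted protein that binds BMPs and Wnt co-receptors, and it is expressed around developing hair placodes. On its brightest probe set (1449340_at) the signal was 1667 and 2036 in mutants, against 1515 and 1371 in controls. The other (1460250_at) had 1559 and 1744 in mutants, against 1131 and 1015 in controls. Mutants were above controls on both, with log2 changes of 0.35 ± 0.12 (limma adjusted p = 0.0438) and 0.62 ± 0.10 (limma adjusted p = 0.00222), errors being SE of 2 arrays per group. The first call was lost without control 1 (0.43), without control 2 (0.28) and without mutant 2 (0.21), and the second passed without any 1 array. Sostdc1 was therefore the smallest of the rises by brightest probe set, and its size differed between its probe sets (1.28-fold and 1.54-fold).

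Nog and Grem1 were not above background. Nog, which encodes noggin and is known from the dermal condensate under the placode, had 0.720 and 3.95 in mutants, against 7.69 and 2.18 in controls. Grem1, which encodes gremlin, had 4.44 and 13.5 in mutants, against 8.84 and 11.0 in controls. The groups overlapped for both, and every value lay below its array's 40th percentile, so that no change could be measured for either. A signal at this level does not show that a transcript is absent.

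The authors' deposited table lists probe sets that differed at least 2-fold between group means of GCRMA values, a different way of turning probe brightness into signal, and that were called Present on at least 2 arrays. It held 9 of the 22 probe sets, those of Bmp2, Bmp4, Bmp7, Bmpr1b and Bambi, and none of Bmpr1a, Bmpr2, Sostdc1, Nog or Grem1. In the authors' deposited table Bmp4 was 96.7-fold higher in mutants, against 37.9-fold in the MAS5 signal, and Bambi was 9.47-fold higher, against 7.02-fold. Bmp2 was 13.4-fold higher in the authors' deposited table, close to the 12.9-fold of the MAS5 signal. The 3 probe sets of Bmpr1b were 4.43-fold, 4.70-fold and 6.45-fold lower in the authors' deposited table, against 3.66-fold, 3.58-fold and 2.16-fold. The third probe set of Bmpr1b, the dimmest, thus differed most between the processings among the falls. The mutants had like ratios on the brightest Bmpr1b probe set in the authors' deposited table (0.211 and 0.240 of the control mean), where their MAS5 signals had differed by 1.80-fold.

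**Figure D3:**
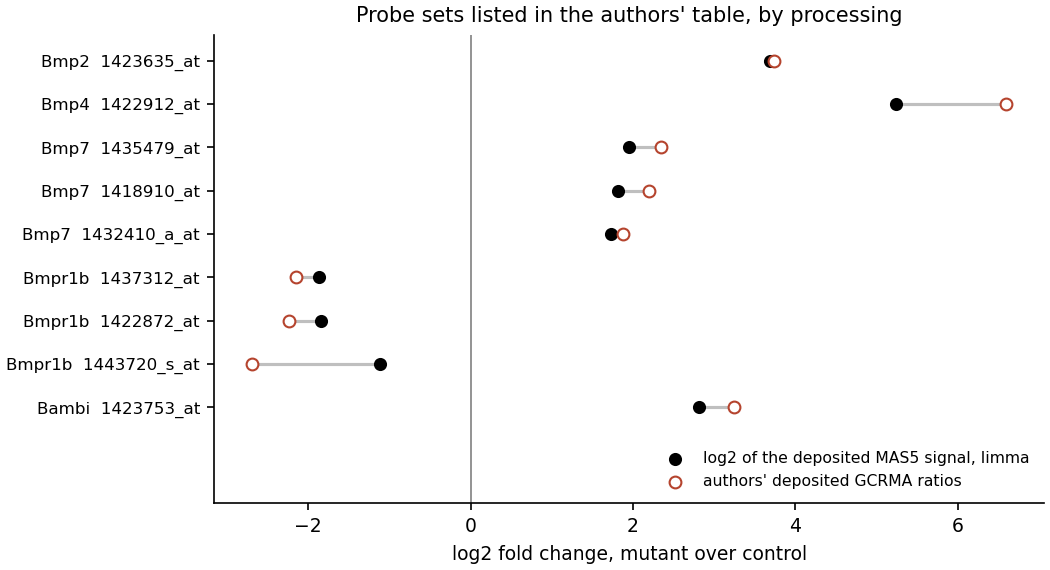
Log2 fold change, mutant over control, of the 9 probe sets that the authors' deposited table lists, from log2 MAS5 signals with limma (black) and from the authors' GCRMA ratios (open red). The direction was the same for all 9 probe sets, but both processings read the same arrays, so this is no separate check. The gap was widest for the third probe set of Bmpr1b (-1.11 and -2.69) and for Bmp4 (5.24 and 6.60).

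The other genes of the pathway were described by lists, each gene read by its brightest probe set and set beside the 45.1% of all tested genes that passed in either direction. Of 12 other ligands, 9 had a probe set of their own and 5 were tested, of which 3 rose and 0 fell. Bmp8a had 610 and 654 in mutants, against 49.0 and 76.1 in controls, and rose by 3.37 ± 0.20. Bmp6 and Bmp5, ligands of the Bmp7 branch, were below background in both controls and were at least 9.44-fold and at least 5.16-fold higher in mutants. These genes entered the test through the mutant arrays alone, so they could only come out higher or not pass. The count of 3 rises leans on that, and 1 ligand passed where signal above background was asked on all 4 arrays. Bmp8b, a close relative of Bmp8a, had -0.33 ± 0.49 (limma adjusted p = 0.624) and Gdf2 had -0.27 ± 0.27 (adjusted p = 0.475), and neither passed. Bmp10, Bmp15, Gdf5 and Gdf10 were too dim to test.

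Of 9 other receptors and co-receptors 7 were tested, and 3 rose, 3 fell and 1 did not pass. The falls were the largest changes. Rgmb, a membrane-anchored BMP co-receptor of the repulsive guidance family, had 111 and 107 in mutants, against 737 and 682 in controls, and fell by 2.70 ± 0.11, with all 6 of its tested probe sets lower. Rgma, another of that family, had 10.4 and 20.2 in mutants, against 126 and 118 in controls, and fell by 3.08 ± 0.34. The signal of Rgma in mutant 1 was below that array's background of 16.1, so its size is uncertain. Acvr2a, a type II receptor shared by activins and BMPs, fell by 0.75 ± 0.11, and Acvr1, a type I receptor that binds the Bmp7 branch, rose by 0.65 ± 0.12. The other rises were of Acvr2b (0.66 ± 0.17) and Neo1 (0.46 ± 0.13), and Eng, at 0.26 ± 0.29, did not pass (adjusted p = 0.502). The call of Acvr2b was lost without control 1 (0.49) and without mutant 1 (0.57), and that of Neo1 without control 2 (0.31), without mutant 1 (0.46) and without mutant 2 (0.46). Of the tested probe sets, 2 of 3 for Acvr2b and 2 of 4 for Neo1 were higher.

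Of 20 other extracellular antagonists and modulators 19 had a probe set of their own and 11 were tested, and 3 rose, 3 fell and 5 did not pass. Twsg1, a secreted modulator that binds BMPs together with chordin, had 290 and 281 in mutants, against 949 and 949 in controls, and fell by 1.73 ± 0.10. Another 2 of its 4 tested probe sets were lower too, and the remaining one, with -0.42 ± 0.31, did not pass. Fstl3, a follistatin-like protein that binds activins, fell by 1.53 ± 0.20, and Fst, follistatin itself, by 0.73 ± 0.12. Bmper and Tll1 were below background in both controls. They entered the test through the mutant arrays alone, so they could only come out higher or not pass. Where signal above background was asked on all 4 arrays, 4 genes of this list passed, against 6 here. Bmper, a secreted BMP-binding protein, was at least 5.65-fold higher in mutants, and Tll1, a protease that cleaves chordin, was at least 7.36-fold higher. Fstl1 rose by 0.49 ± 0.10. Crim1, Bmp1, Kcp, Smoc1 and Chrd, which encodes chordin, did not pass.

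Transducers and targets of the pathway gave 10 rises and 1 fall among 13 tested genes, with a median log2 fold change of 0.95. Msx1 and Msx2, homeobox genes transcribed in response to BMPs, rose. On its brightest probe set Msx1 had 1144 and 1296 in mutants and was below background in controls, at least 84.0-fold higher. That probe set too entered the test through the mutant arrays alone. The other Msx1 probe set had 230 and 317 in mutants, against 25.2 and 9.67 in controls, and rose by 4.11 ± 0.42. There control 1 was above its array's background of 14.4. Msx2 had 1434 and 1684 in mutants, against 50.9 and 69.2 in controls, and rose by 4.71 ± 0.17. The Id genes, direct BMP targets that encode inhibitors of helix-loop-helix factors, rose as well, Id2 by 2.05 ± 0.10 and Id3 by 1.88 ± 0.09. Id1 and Id4, named after their values were seen, rose less, by 0.95 ± 0.09 and 0.95 ± 0.14, each under 2-fold. Smad6 and Smad7, the inhibitory Smads, were named after their values were seen and rose by 2.62 ± 0.20 and 3.54 ± 0.19. The fall was of Smurf1 (-0.98 ± 0.16), a ubiquitin ligase that acts on Smads. Smad1 (-0.24 ± 0.09) and Smad5 (0.28 ± 0.11), which carry the BMP signal, did not pass on their brightest probe sets, and 1 of the 2 other Smad1 probe sets was lower (-0.59 ± 0.13, limma adjusted p = 0.00758). Msx and Id genes are also known to respond to signals other than BMPs, and no measure of Smad phosphorylation was made here.

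**Figure D4:**
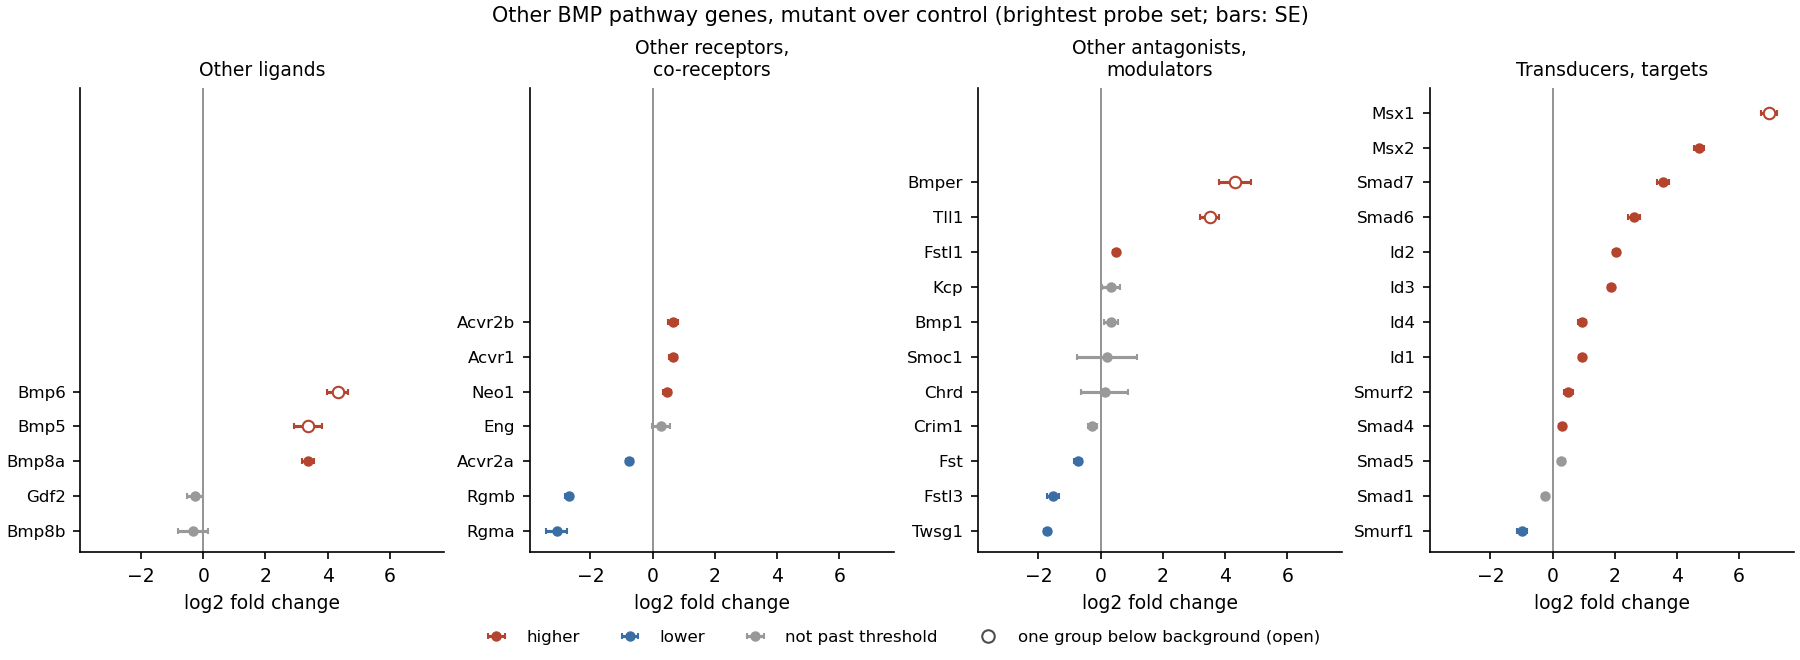
Log2 fold change, mutant over control, of the tested genes in 4 lists of other BMP pathway genes, each read by its brightest probe set, with SE bars. Red genes were higher, blue genes lower and grey genes not past the threshold, and open points had 1 group below background, so their size is uncertain. Genes with open points entered the test through the mutant arrays alone. Among transducers and targets 10 of 13 genes were higher, whereas other receptors and co-receptors gave 3 higher and 3 lower.

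Markers of the cells that the tissue could hold were read on the same arrays. All 8 epidermal markers were above background on every array. Their summed signal, in which bright probe sets weigh most, was 23336 and 25498 in mutants, against 49034 and 49513 in controls. Of the 8, 6 were lower, led by Krt1 and Krt10, and Krt5 and Trp63 did not pass. Krt1 had 484 and 391 in mutants, against 6469 and 7295 in controls, and Krt10 had 1027 and 835, against 10965 and 11014. Krt14 changed by -0.35 ± 0.10. All 8 melanocyte markers were higher, with sums of 5189 and 6313 in mutants, against 1668 and 1675 in controls. Of 10 dermal fibroblast markers 1 was higher and 2 lower, and their sum was 3672 and 4140 in mutants, against 3444 and 4227 in controls. Dcn made up most of that sum, and without it the sums were 228 and 435 in mutants, against 536 and 1328 in controls. Control 2 stood above control 1 in Col1a1 (107 and 1.84) and Col3a1 (381 and 22.9). Mutant 2 likewise stood above mutant 1 in Col1a1 (63.2 and 6.65), while the mutants were alike in Col3a1 (27.7 and 26.6). Pdgfra and Twist1 were below background on all 4 arrays. Of 11 dermal condensate markers, 10 had a probe set of their own, and 3 were higher and 1 lower, with sums of 437 and 512 in mutants, against 155 and 206 in controls. Prdm1 made up most of the mutant sums, and without it they were 118 and 142 in mutants, against 89.2 and 103 in controls. The other higher ones were Crabp1 (38.6 and 48.9 in mutants, against 12.1 and 18.8 in controls) and Inhba (20.6 and 33.6, against 2.23 and 2.76). Cxcr4 was lower, and Sox2, Sox18, Fgf10 and Rspo3 were below background on all 4 arrays. Of 6 endothelial markers 5, and of 5 immune markers 3, were below background on all arrays, with sums of 35.3 and 28.8 in mutants, against 39.8 and 62.1 in controls, for endothelium, and of 70.0 and 65.9 in mutants, against 77.3 and 88.5 in controls, for immune cells. Melanocyte and epidermal markers differed between the groups along with the BMP genes. So did the fibroblast markers Col1a2 and Col5a1, which were lower, and Dcn, which was higher. Among condensate markers, Prdm1, Crabp1 and Inhba were higher and Cxcr4 was lower. The part of all these markers in the changes of the BMP genes was not tested.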

How the data were processed

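Labelled RNA of 4 epidermis samples was hybridised to 4 arrays. The deposited intensity values come from GCOS and MAS5, as the submitters' processing notes name them, and lie on a linear scale already equal in trimmed mean, so log2 was taken with no further scaling. Per the file headers, the authors' second table holds each GCRMA ratio to the mean of the controls and a fold, control over mutant, which is turned round here. The file has 45101 probe sets, and 64 array controls among them were not used. Testing required signal over the 40th percentile of the array on 2 or more arrays. Genes came from the platform annotation, with symbols updated through Entrez identifiers for 34741 of 34945 probe sets naming 1 gene. The brightest tested probe set stood for a gene.

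Signals were compared with limma (version 3.58.1, R 4.3.3; lmFit, eBayes with an intensity trend), two-sided, with a threshold of 0.05. A group at or below that percentile on both its arrays was taken as below background, and its fold is "at least", computed against that percentile or the signal, whichever was higher. With 2 arrays a side the smallest p of an exact permutation test is 0.333, and calls therefore rest on limma's pooled spread, and the number of arrays limits precision. Scripts were tested on simulated data. Of each other list, up to 4 genes with the largest moderated t were named, with further genes named after their values were seen. Members and lists were chosen with earlier results of these data known. The arrays shared 1 fluidics station, scanner and day, and each had its own fluidics module, so no batch could be tested.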

Additional observations from a re-analysis of the deposited data

How the results depend on the processing

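Each result was recomputed with median centring, quantile normalization, no filter on dim probe sets, a filter requiring signal above the 40th percentile on all 4 arrays, log2(signal + 16), no intensity trend, the replicate number as a block, and without each array in turn. No tested probe set of the 10 genes changed direction. Bmp2, Bmp4, Bmp7, Bambi, the brightest probe sets of Bmpr1b and Bmpr2 and the second of Sostdc1 passed under every one of these alternatives. The brightest probe set of Sostdc1 did not pass under 6 of 11 (adjusted p 0.0700 to 0.208 in those 6, 0.0111 to 0.208 over all 11), that of Bmpr1a passed under 3 of 11, and the second of Bmpr2 passed under 4 of 11. Probe sets of the 10 genes called higher were 11, and 8 with median centring and with no intensity trend, 9 with no filter, 12 with quantile normalization and with log2(signal + 16), 13 with the filter on all 4 arrays, 8 to 11 without 1 array, and 6 where a fold of at least 2 was also asked. Those called lower were 3, 4 with no filter, 2 with the filter on all 4 arrays and 2 to 3 without 1 array. Genes called higher were 6, 5 with median centring, no filter or no intensity trend, 7 with the filter on all 4 arrays and 5 to 6 without 1 array; 1 was lower throughout. Over all probe sets, 4195 to 4493 were called higher and 3905 to 5237 lower without 1 array, against 5386 and 5824 with all 4. Median centring gave 4464 higher and 7059 lower, and moved the median of all probe sets by -0.11. The replicate numbers do not pair the embryos in the labels, and deviations of same-numbered arrays correlated at 0.015 over probe sets. With the number as a block 13 probe sets of the 10 genes were higher and 3 lower, and Bmpr1a passed on its brightest probe set (0.35, adjusted p = 0.0322). Among other pathway genes, 5 that did not pass changed sign: Bmp8b, 0.37 without mutant 1; Eng, -0.0027, and Bmp1, -0.0037, without control 2; Smoc1, -0.78 without control 2 and -0.81 without mutant 1; and Chrd, -0.021 with quantile normalization, -0.70 without control 1 and -0.49 without mutant 1. Over the arrays left out, Bmp8b ran from -1.03 to 0.37, Eng from -0.0027 to 0.53, Bmp1 from -0.0037 to 0.67 (passing at adjusted p = 0.0420 without control 1), Smoc1 from -0.81 to 1.22 and Chrd from -0.70 to 0.97. With the filter on all 4 arrays, 1 other ligand passed. The median over the probe sets of Bmp7 was 1.82, against 1.95 on the brightest. The causes of these differences were not tested.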

Other observations

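The dimmest probe set (1445413_at) of Bmpr1a had 0.393 and 0.699 in mutants, against 6.70 and 5.22 in controls, all below the 40th percentile of their arrays. Of the brighter probe sets of the gene, 4 had log2 fold changes above 0 and 1 had -0.16 ± 0.26. The rise of Bmp5 was uneven between mutants in the authors' deposited table, with GCRMA ratios of 12.8 and 1.72 to the control mean on the probe set that was brightest in the MAS5 signal, and of 3.75 and 3.18, and 3.93 and 2.63, on the others. The 3 genes nearest to Bmpr1b over the 4 arrays, by the distance used for Bmp4, were Rab44 (0.089), 4933404O12Rik (0.140) and Popdc3 (0.155).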
